A study of Mus musculus with 6 samples.

Results

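Integrin and laminin chains were followed in RNA bound to tagged ribosomes from the corpus callosum, the white matter tract that joins the cerebral hemispheres, of mice fed cuprizone and of control mice. The genes were the 34 whose symbol in the mouse GENCODE annotation is that of one of 24 integrin chains (16 α and 8 β) or 10 laminin chains in a set list, out of 39017 identifiers in the count table. All 34 were found, and 29 of them (21 integrins and 8 laminins) had enough counts to be tested.

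All 6 libraries came from the strain C57BL/6 and from a cross of RiboTag with Olig1-Cre mice. In this cross Cre, driven by the oligodendrocyte lineage gene Olig1, switches the ribosomal protein RPL22 to a form that carries an HA tag, and an anti-HA antibody then pulls down the tagged ribosomes with the RNA they hold. Controls and cuprizone mice shared both alleles. The control group was replicates 24, 26 and 27 and the cuprizone group replicates 30, 31 and 32. Cuprizone is a copper chelator that kills mature oligodendrocytes and strips myelin. The protocol describes females that were 8 to 10 weeks old, 0.2% cuprizone in the food for either 6 or 9 weeks, then 3 weeks back on a control diet. The labels do not say at which of these stages a library was taken, nor whether a library was 1 mouse or a pool, so p-values measure only the spread between these libraries.

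Integrins are receptors at the cell surface, each made of an α and a β chain, that hold cells to the matrix around them and pass signals inward through the β chain's tail. Laminins are cross-shaped trimers of an α, a β and a γ chain that form the core of basement membranes. In oligodendrocytes the laminin receptor formed by Itga6 and Itgb1 is known for its part in survival and in the first wrapping of axons, and αv chains paired with other β chains for their part in the growth and differentiation of progenitors. Itgb4, the other partner of Itga6, is best known from hemidesmosomes, the rivets that hold epithelial cells to laminin, and from Schwann cells of peripheral nerve.

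Of the 29 tested chains, 3 integrins were higher in cuprizone (Itga1, Itga2b and Itga5) and 1 was lower (Itgb4), at an adjusted p under 0.05 in edgeR's quasi-likelihood test with Benjamini-Hochberg adjustment over 16569 genes. That is 13.8% of the chains, beside 7.57% of all genes tested (1.87% higher and 5.70% lower). The median log2 fold change was 0.26 over the integrins and 0.15 over the laminins, against 0.02 over all genes. No laminin chain passed. In 10 chains, all integrins, the groups did not overlap (7 higher and 3 lower in cuprizone), which is 34.5% of the chains tested beside 30.2% of all genes (12.6% higher and 17.6% lower). Among the 7, Itga11 and Itga1 passed the count filter only through their cuprizone libraries, and Itga1 is also among the 3 chains called higher. The count of 4 calls fell to 2 without control replicate 24 (4.01% of all genes called), to 1 without control replicate 26 (3.24%), to 2 without control replicate 27 (3.32%) and to 2 without cuprizone replicate 30 (3.41%). DESeq2 called 7 chains and 12.5% of all genes.

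The sequences just upstream of the start sites of Itga5 and Itga1 are given because these 2 rose and their RefSeq windows lie outside the gene body. They are in GRCm38.p6, 5′ to 3′ on the minus strand on which both genes lie, at chr15:103366792-103367041 for Itga5 and chr13:115101965-115102214 for Itga1. Capitals mark matches to the GC box GGGCGG on either strand, the letters that transcription factors of the Sp family are known to bind.
Itga5: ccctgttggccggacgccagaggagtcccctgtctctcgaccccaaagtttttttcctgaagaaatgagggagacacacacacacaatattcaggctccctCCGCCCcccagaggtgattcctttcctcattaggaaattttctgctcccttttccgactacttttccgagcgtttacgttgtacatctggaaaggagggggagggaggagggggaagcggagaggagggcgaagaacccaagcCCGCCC
Itga1: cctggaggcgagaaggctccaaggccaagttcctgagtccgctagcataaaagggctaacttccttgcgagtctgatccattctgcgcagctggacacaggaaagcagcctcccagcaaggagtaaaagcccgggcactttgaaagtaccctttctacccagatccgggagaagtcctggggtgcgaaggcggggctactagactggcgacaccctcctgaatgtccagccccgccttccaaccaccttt

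Itga5 carried a GC box match 149 and 6 bases before its start site, and Itga1 carried none. Of the 34 chains, 23 had a RefSeq window that ran from 250 bases before to 50 bases after the start. Only the 250 bases before the start were searched for motifs, here and in all windows. In 8 of the 23 chains they held a GC box (Itga3, Itga4, Itga5, Itgam, Itgb1, Itgb5, Lama5 and Lamb1), while they did in 32.7% of all 32851 windows. An AP-1 site (TGANTCA, 6.75% of all windows) and a GATA site (AGATAA, 9.99%) were each found once among the chains, in Itgax, and an ETS site (CCGGAA, 12.0%) once, in Itga3. The TATA box TATAAA, held by 12.4% of all windows, was in 0 of the 23. All motifs were searched on both strands, and a match is a run of letters, not a measured site. Itga6, Itga7, Itgal, Itgb2, Itgb3, Itgb4, Lama1, Lama3, Lama4, Lamc1 and Lamc3 had no window, and that of Itga2b lay mostly inside the gene.

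Library totals ran from 18549360 to 22381307 counts. Cuprizone replicate 32 stood apart from the other libraries of its group: the chi-square of counts per degree of freedom was 85.1 and 101 against replicates 30 and 31, and 24.4 to 30.6 in every other pair within a group. The tagged gene Rpl22 was at 70.4 ± 7.14 CPM (counts per 1000000 of the scaled library) in controls and 76.4 ± 9.97 in cuprizone (SD, n = 3 each). All 15 myelin markers fell, and their summed level was 69452 to 91011 CPM in controls and 9260 to 18010 in cuprizone. Of 10 oligodendrocyte progenitor markers 1 (Sox10) passed the threshold, as lower (10.0%, beside 5.70% of all genes). The log2 fold change was negative in 8 of the 10 and positive in 2, beside 7846 negative of 16569 genes tested. The progenitor sums were 2040 to 2316 CPM in controls and 1180 to 1942 in cuprizone. Olig1, the driver of Cre, fell from 1438 ± 184 to 661 ± 167 CPM (log2 fold change -1.12 ± 0.24 SE, adjusted p = 0.0334 by edgeR). The labels name the cells oligodendrocytes, but 10 astrocyte markers summed to 23134 to 25973 CPM in controls and 16116 to 31032 in cuprizone, so astrocyte RNA was present in every library. In RNA from tissue, fewer cells of a type and less RNA per cell cannot be told apart.

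Itgb4, on chromosome 11 at 115974709 to 116008412 of GRCm38 on the plus strand (ENSMUSG00000020758), was the chain that moved most. It stood at 161, 161 and 143 CPM in control replicates 24, 26 and 27 and at 8.84, 15.3 and 6.46 CPM in cuprizone replicates 30, 31 and 32. The groups were far apart, and the gap between them was many times the spread within either. The mean went from 155 ± 10.4 to 10.2 ± 4.58 CPM (SD, n = 3 each), a 15.2-fold fall (log2 fold change -3.92 ± 0.32 SE, adjusted p = 0.00154 by edgeR). The call held in each of 13 alternatives of scaling, filter, tool or left-out library, with log2 fold changes from -4.34 to -3.68.

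Myelin genes fell in the same libraries as Itgb4, and the part of the lost myelin RNA in its fall was not tested. As a percent of the control mean, Itgb4 was at 5.70%, 9.87% and 4.17% in cuprizone replicates 30, 31 and 32. Mog, a surface protein of mature myelin, was at 7.15%, 11.8% and 4.56%, and the summed myelin list at 12.2%, 22.3% and 11.5%. Mal, the only myelin marker with a log2 fold change (-4.74) below that of Itgb4, was at 2.59%, 6.42% and 2.23%. Replicate 31 kept most and replicate 32 least in all of these. A noncoding gene on the other strand, B230344G16Rik, shares 537 exonic bases with Itgb4 (7.66% of its exons) and went from a mean of 9.06 to 0.519 CPM. No source used here says whether counting used the strand, so reads of that overlap could belong to either gene.

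Itga6, the α chain that pairs with Itgb4 and with Itgb1, was not lower in cuprizone. It was at 36.2, 39.6 and 30.1 CPM in the controls and at 58.6, 52.5 and 47.3 CPM in cuprizone. Every cuprizone library was above every control, and the means were 35.3 ± 4.82 and 52.8 ± 5.65 CPM. The difference of 0.58 ± 0.14 SE (log2) missed the threshold with an adjusted p of 0.0549 by edgeR, and passed it with upper-quartile scaling (0.0451), with DESeq2 (0.0111) and without cuprizone replicate 32 (0.0383). Per length of exon, the level of Itgb4 was 5.72, 5.24 and 6.13 times that of Itga6 in the controls and 0.194, 0.375 and 0.176 times in cuprizone. The more abundant chain of the pair was thus Itgb4 in every control library and Itga6 in every cuprizone library.

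Itgb1, the β chain shared by most matrix-binding α chains, was at 146, 157 and 140 CPM in controls and 116, 125 and 91.7 CPM in cuprizone. All cuprizone libraries were below all controls, yet the difference was small beside that of Itgb4 and did not pass (log2 fold change -0.41 ± 0.15 SE, adjusted p = 0.146 by edgeR). The ratio of Itgb4 to Itgb1 per length went from 0.611 ± 0.0254 to 0.0521 ± 0.0165 (SD, n = 3 each). Itga3 and Itga7, also α chains of laminin receptors, overlapped between the groups and did not pass. Itga3, which serves epithelial and neural laminin adhesion, had a log2 difference of -0.02 ± 0.27 SE. That of Itga7, the laminin receptor of muscle, was 0.21 ± 0.27 SE.

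**Figure D1:**
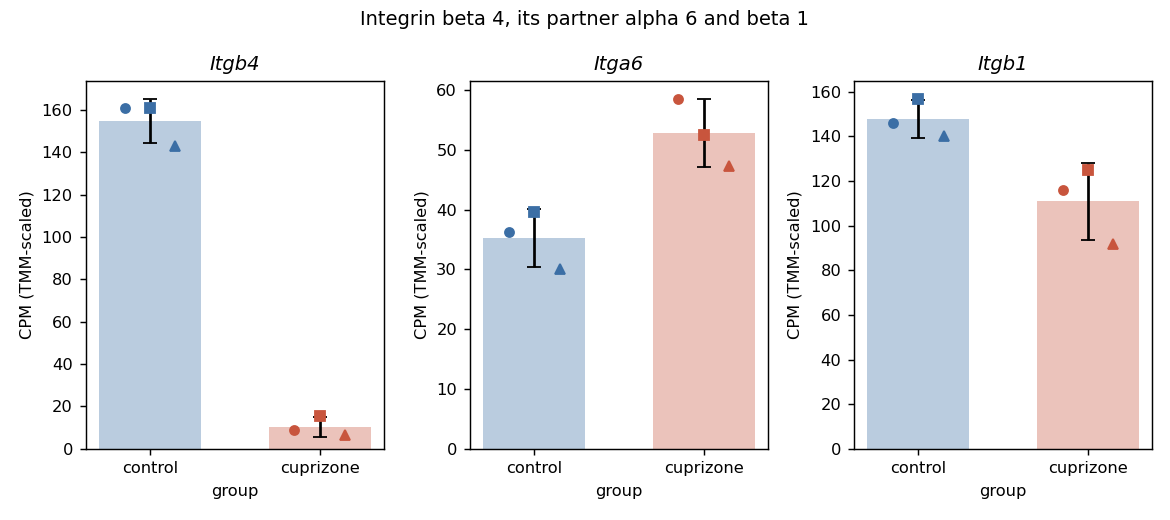
Levels of Itgb4, Itga6 and Itgb1 in CPM (vertical axis, from 0) by group. Bars are means of 3 libraries, whiskers 1 SD, and points single libraries (circle, square and triangle for replicates 24, 26 and 27 or 30, 31 and 32); Itgb4 went from 155 to 10.2 CPM, while Itga6 was at 35.3 and 52.8 CPM and Itgb1 at 148 and 111 CPM.

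Itga5, the α chain of the classical fibronectin receptor with Itgb1, lies on chromosome 15 at 103344286 to 103366763, minus strand (ENSMUSG00000000555). It was at 6.72, 5.67 and 4.66 CPM in controls and at 11.6, 13.6 and 16.3 CPM in cuprizone. The groups did not overlap, and the mean rose 2.43-fold, from 5.68 ± 1.03 to 13.8 ± 2.35 CPM (log2 fold change 1.28 ± 0.20 SE, adjusted p = 0.0106 by edgeR). Without control replicate 26 its adjusted p was 0.0585, and it passed in the other 12 alternatives.

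Itga1, the α chain of a collagen and laminin receptor (chromosome 13, 114953096 to 115101964, minus strand, ENSMUSG00000042284), was close to the lower limit of counting. It had 14, 9 and 10 counts in the controls (0.825, 0.510 and 0.582 CPM) and 75, 35 and 43 in cuprizone (3.38, 1.50 and 2.03 CPM). All cuprizone libraries were above all controls, with a log2 fold change of 1.84 ± 0.40 SE and an adjusted p of 0.0374 by edgeR. The adjusted p was 0.0569 with limma-voom, 0.0787, 0.138 and 0.152 without control replicates 24, 26 and 27, and 0.106 and 0.0523 without cuprizone replicates 30 and 32.

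Itga2b, the α chain of the fibrinogen receptor of platelets (chromosome 11, 102453297 to 102470122, minus strand, ENSMUSG00000034664), had 23, 22 and 16 counts in controls and 79, 56 and 59 in cuprizone. These are 1.36, 1.25 and 0.932 CPM against 3.56, 2.39 and 2.78 CPM, again with no overlap. It rose by 1.30 ± 0.27 SE on the log2 scale (adjusted p = 0.0325 by edgeR). Without control replicates 24, 26 and 27 its adjusted p was 0.0769, 0.108 and 0.134, and without cuprizone replicates 30 and 32 it was 0.118 and 0.0501.

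Among the remaining collagen receptors, Itga11 was at 0.118, 0.510 and 0.466 CPM in controls and 0.947, 0.941 and 1.18 CPM in cuprizone (log2 fold change 1.46 ± 0.47 SE, adjusted p = 0.118 by edgeR). No control library of Itga11 reached the level of 0.523 CPM that the filter asks for, so it was tested only because of the cuprizone libraries. Itga1 reached it in 2 of 3 controls, and as the filter asks for 3 libraries, its controls alone did not pass either. Itga2, with 2 to 5 counts a library, and Itga10, with 4 to 10, were not tested.

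Itgav pairs with Itgb1, Itgb3, Itgb5, Itgb6 and Itgb8 to bind the RGD motif of vitronectin, fibronectin and latent TGF-β. It was at 73.4, 113 and 81.9 CPM in controls and 89.3, 81.5 and 39.9 CPM in cuprizone, so the groups overlapped (log2 fold change -0.35 ± 0.31 SE, adjusted p = 0.548 by edgeR). Itgb5, a partner of Itgav that binds vitronectin, was at 309, 228 and 204 CPM in controls and 234, 278 and 378 CPM in cuprizone, with an overlap as wide (0.26 ± 0.23 SE, adjusted p = 0.549). Itgb8, which with Itgav holds and activates latent TGF-β, was at 87.6, 118 and 92.4 CPM in controls and 134, 115 and 55.9 CPM in cuprizone (0.03 ± 0.31 SE, adjusted p = 0.963). Cuprizone replicate 32 was the lowest library for Itgav and Itgb8 and the highest for Itgb5.

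Itgb3, the β chain of both the vitronectin receptor and the platelet receptor, was low: 7.78, 8.39 and 8.45 CPM in controls and 4.19, 4.96 and 6.98 CPM in cuprizone. The groups did not overlap, but the log2 difference of -0.61 ± 0.21 SE passed only without cuprizone replicate 32 (adjusted p = 0.144 by edgeR with all libraries and 0.0339 without that one). Itgb6, an epithelial partner of Itgav, had 2 counts in control replicate 27 and 0 in the other libraries. Itga8, another RGD receptor, differed by -0.05 ± 0.48 SE (log2).

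Leukocyte integrins are carried by microglia and other immune cells rather than by oligodendrocytes. Itgam, whose product is the microglial marker CD11b, was at 60.2, 46.8 and 37.6 CPM in controls and 55.4, 53.5 and 84.6 CPM in cuprizone (log2 fold change 0.42 ± 0.24 SE, adjusted p = 0.335 by edgeR). Itgb2, the β chain of this family, was at 42.8, 29.6 and 17.6 CPM in controls and 35.5, 56.1 and 94.5 CPM in cuprizone (1.05 ± 0.42 SE, adjusted p = 0.194). Both overlapped between groups and were highest in cuprizone replicate 32. Itgax, whose product CD11c marks activated microglia, was at 29.8, 23.0 and 7.34 CPM in controls and 31.7, 63.9 and 98.7 CPM in cuprizone, without overlap (1.69 ± 0.56 SE, adjusted p = 0.129 by edgeR and 0.0126 by DESeq2).

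The 12 microglia and macrophage markers summed to 2405, 1328 and 1221 CPM in controls 24, 26 and 27 and to 1847, 2364 and 4307 CPM in cuprizone 30, 31 and 32. This is the order, within each group, of Itgax and Itgb2, and also of Itgal, Itga4, Itgb7, Itga5 and Itgb5. Itgam had it in the controls but not in cuprizone. The part of microglial RNA in the levels of these chains was not tested. None of the 12 markers passed the threshold or was at 0. Itgal, the α chain of the ICAM receptor of lymphocytes, had means of 1.94 ± 1.44 and 4.43 ± 2.44 CPM with overlap (1.19 ± 0.60 SE, adjusted p = 0.284 by edgeR). Itga4, which binds VCAM1, was at 3.60, 3.51 and 3.20 CPM in controls and 4.60, 5.56 and 8.49 CPM in cuprizone without overlap (0.85 ± 0.26 SE, adjusted p = 0.103 by edgeR and 0.0467 by DESeq2). Itgb7, a partner of Itga4 in gut-homing lymphocytes, and Itga9, a receptor for tenascin C, had log2 differences of -0.08 ± 0.41 and -0.19 ± 0.18 SE.

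**Figure D2:**
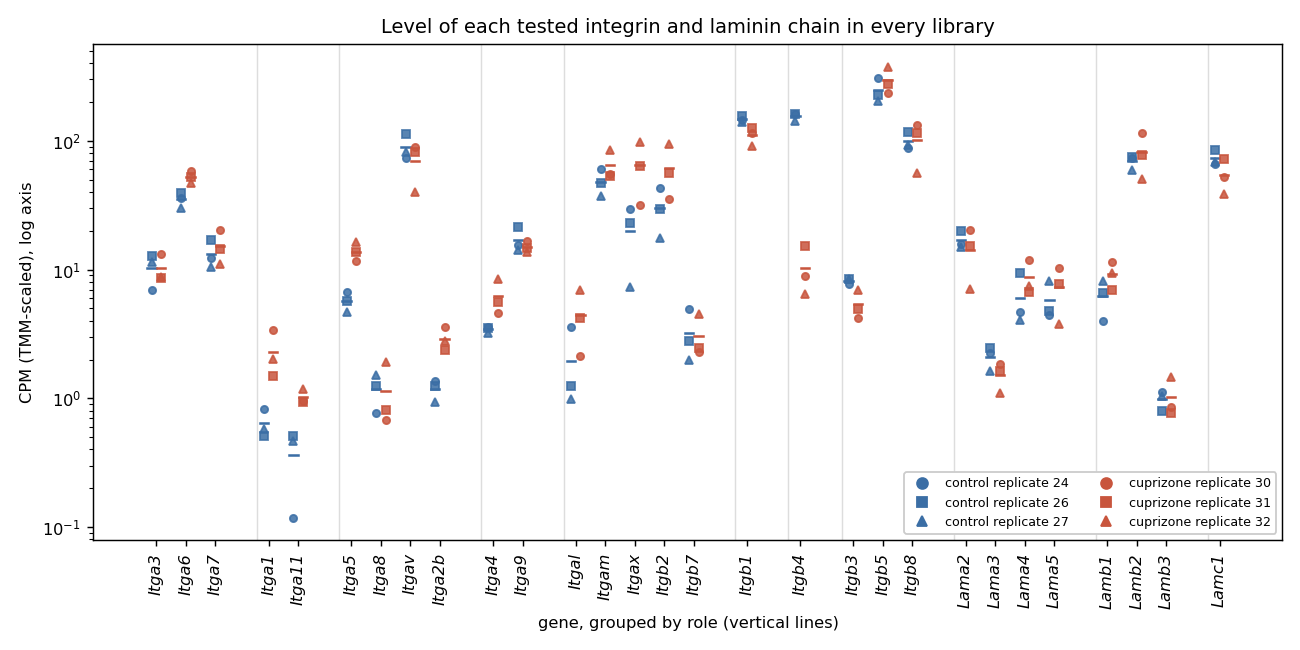
Level of each of the 29 tested chains in every library, in CPM on a log axis, grouped by role between vertical lines. Points are libraries (blue for control, red for cuprizone) and short bars are group means; the blue and red points of Itgb4 are furthest apart, from 143 to 161 against 6.46 to 15.3 CPM.

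No laminin chain passed the test. Of the 8 tested, 0 passed in edgeR, in DESeq2 or in limma-voom (which called 7.63% of all genes). By edgeR 0 reached an unadjusted p under 0.05, while 3864 of all 16569 genes did. In all 8 the groups overlapped, while in 30.2% of all genes they did not. Their log2 fold changes ran from -0.47 (Lama3) to 0.57 (Lamb1). A p that misses the threshold does not show that a level stayed the same, and in simulated counts the test found 54% of genes lowered and 76% of genes raised by 1 on the log2 scale. Genes at low levels were not changed in the simulation, so these shares do not cover Lama3 and Lamb3.

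Lama2, the α chain of the laminin of muscle and brain whose loss causes a muscular dystrophy with white matter changes, was at 15.9, 20.1 and 14.9 CPM in controls and 20.3, 15.3 and 7.03 CPM in cuprizone (-0.25 ± 0.35 SE, adjusted p = 0.715 by edgeR). Lama4, the α chain of vascular laminins, was at 4.72, 9.35 and 4.08 CPM in controls and 11.8, 6.71 and 7.50 CPM in cuprizone (0.52 ± 0.37 SE, adjusted p = 0.439). The low library of the cuprizone group differed between them, replicate 32 for Lama2 and replicate 31 for Lama4. The skin laminin chain Lama3 and the broadly used Lama5 differed by -0.47 ± 0.30 and 0.33 ± 0.40 SE (log2).

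Lamb1, a β chain found in most laminins, was at 3.95, 6.52 and 8.21 CPM in controls and 11.4, 6.97 and 9.34 CPM in cuprizone (0.57 ± 0.30 SE, adjusted p = 0.305 by edgeR). Lamb2, the β chain of synaptic and vascular laminins, had means of 69.2 ± 8.70 and 81.7 ± 32.9 CPM, and Lamb3, a skin chain, 0.987 ± 0.172 and 1.03 ± 0.377 CPM. Lamc1, the γ chain that most laminins share, was at 66.6, 85.3 and 68.4 CPM in controls and 52.7, 72.2 and 38.6 CPM in cuprizone (-0.43 ± 0.23 SE, adjusted p = 0.312). Each of these overlapped between groups.

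Lama1, the embryonic α chain, had 4 to 11 counts a library and was not tested. Lamc3 was not tested either, with 7, 1 and 11 counts in controls and 9, 1 and 82 in cuprizone. Its 82 counts were in cuprizone replicate 32, in which 9 pericyte and smooth muscle markers summed to 214 CPM against 57.5 to 104 CPM in the other 5 libraries. The part of those cells in its level was not tested.

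Over the 24 integrin genes together, the share of all counts was 0.0868% ± 0.0105 in controls and 0.0988% ± 0.00716 in cuprizone (SD, n = 3 each), with ranges that did not overlap by a narrow margin (0.0933% in the highest control and 0.0938% in the lowest cuprizone library). With the 15 myelin genes left out of the totals they were 0.0938% ± 0.0113 and 0.100% ± 0.00702, and the ranges overlapped. The TMM-scaled sum of the integrins was lower in cuprizone by its mean, with overlap: 1011, 992 and 814 CPM in controls and 847, 915 and 982 CPM in cuprizone (means 939 ± 109 and 915 ± 67.4), so the direction of the share depended on the scaling. The 10 laminins held 0.0168% ± 0.00212 and 0.0195% ± 0.00580 of all counts, and their TMM-scaled sums were 181 ± 20.2 and 180 ± 52.0 CPM, again with overlap. With 3 libraries a group a permutation test cannot give a 2-sided p below 0.1, so none was made for these shares and sums.

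**Figure D3:**
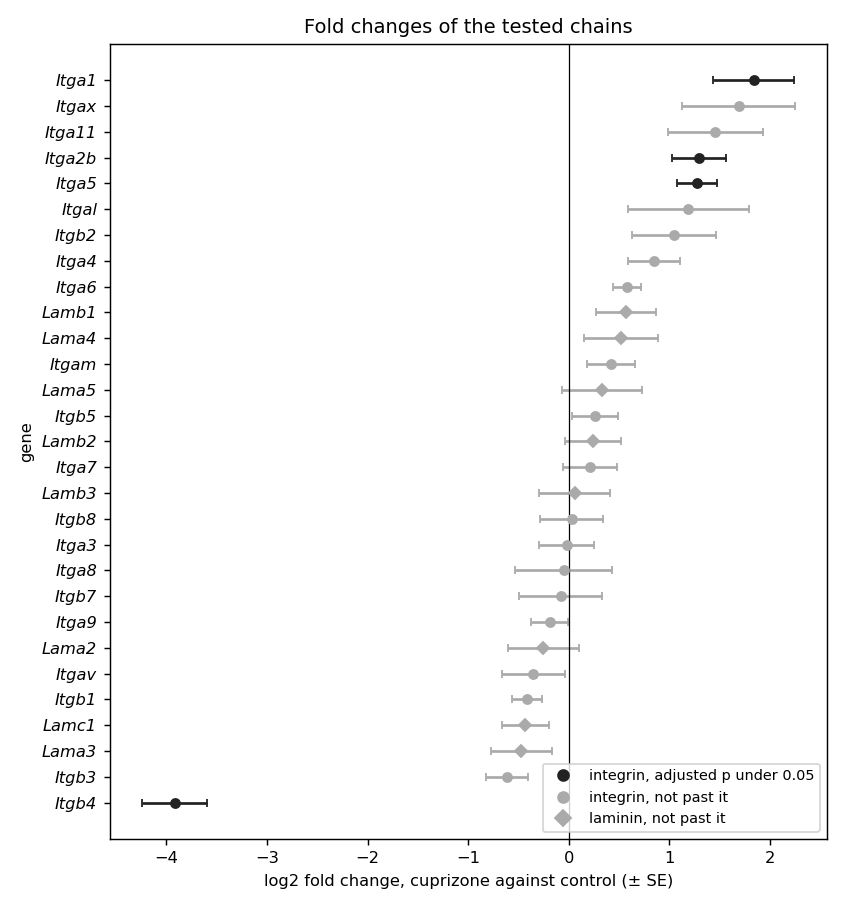
Log2 fold change of cuprizone against control (horizontal axis) for the 29 tested chains, ordered by size, with whiskers of 1 SE. Black points passed an adjusted p under 0.05 and grey points did not; Itgb4 stands alone at -3.92 and all 8 laminins (diamonds) lie between -0.47 and 0.57.

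Ordered by level per length of exon, the controls were led by Itgb5 at 69.5 ± 15.5 CPM per kb, Itgb1 at 36.2 ± 2.08 and Itgb4 at 22.1 ± 1.48 (SD, n = 3 each), each further from the next than the spread of the libraries. Lamb2 (11.4 ± 1.43), Itgb2 (9.83 ± 4.13), Itgam (9.60 ± 2.26), Itgb8 (8.97 ± 1.46), Lamc1 (8.88 ± 1.25) and Itgav (8.34 ± 1.96) followed within 1 SD of their neighbours. In cuprizone Itgb5 (83.5 ± 20.8) and Itgb1 (27.2 ± 4.24) had the highest means. Itgb4 moved from the third place to the fifteenth, at 1.45 ± 0.653 CPM per kb. Itgb2 (20.3 ± 9.81) and Itgax (13.5 ± 6.97) came next after them, with a spread so wide that they were not separated from Itgb1 in the case of Itgb2, nor from Lamb2 (13.4 ± 5.41) or Itgam (12.8 ± 3.47). The exons of Itgam overlap for 68.7% of their length with a gene model on the same strand that is not a row of the count table. The annotation used for counting is not stated, so whether this model affected the level of Itgam is not known. Itga10, which was not tested, overlaps for 33.5% with another such model on the same strand. Smaller overlaps touch Itga1 (3.68%, same strand) and Itga4 (8.04%, with Cerkl on the other strand). Those of Lamc3 (6.27%), Itgav (5.90%), Itga8 (5.05%), Lama2 (3.86%), Lama3 (1.83%) and Itga7 (0.111%) are also with genes on the other strand.

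The makeup of the β chains shows the same change as shares. Itgb4 held 14.9% ± 1.32 of the summed β level per length in controls and 1.04% ± 0.498 in cuprizone, while Itgb5 held 46.3% ± 4.10 and 57.6% ± 4.76, and Itgb2 6.41% ± 1.86 and 13.7% ± 4.40. Itgb1 held 24.5% ± 3.11 and 19.5% ± 5.43, and Itgb8 6.11% ± 1.32 and 6.78% ± 3.55. Shares of a sum move against each other, so a larger share is not a higher level. The summed β level itself was 149 ± 21.2 CPM per kb in controls and 144 ± 24 in cuprizone. Of the laminin sum per length, Lamb2 held 48.7% ± 3.92 and 55.5% ± 6.84 and Lamc1 38.0% ± 2.29 and 28.3% ± 7.08.

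**Figure D4:**
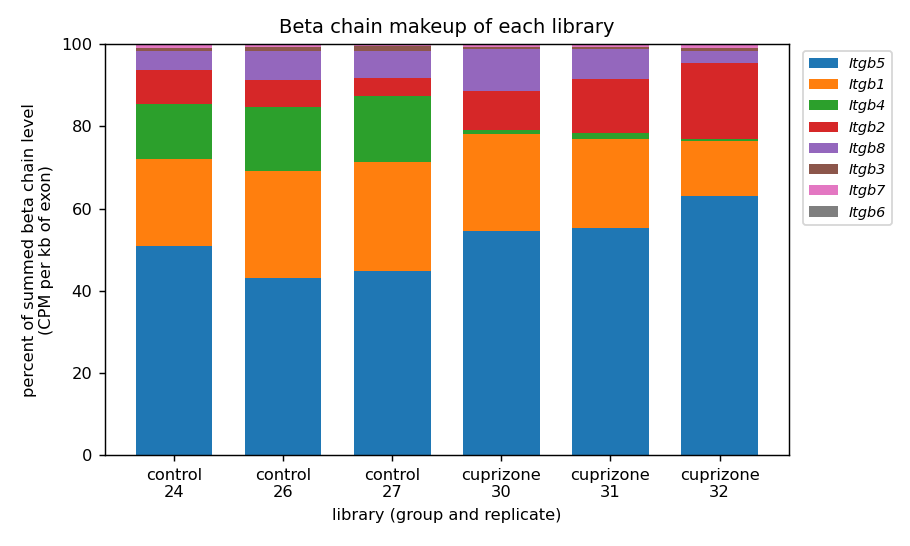
Share of each β chain in the summed β level per length (vertical axis, percent of CPM per kb) in each of the 6 libraries. The Itgb4 segment spans 13.4% to 15.9% in the controls and 0.546% to 1.54% in cuprizone.

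Genes that work with these chains were followed as 5 lists. Of other integrin ligands, 14 of 20 were tested, 2 were higher and 2 lower (28.6% of those tested, beside 7.57% of all genes, 1.87% higher and 5.70% lower), with a median log2 fold change of 0.66 beside 0.02 over all genes. Fn1, fibronectin, the ligand of the receptor with Itga5, was at 6.66, 7.31 and 2.85 CPM in controls and 44.1, 22.5 and 29.7 CPM in cuprizone. The lowest cuprizone library was above the highest control, and Fn1 rose by 2.52 ± 0.39 SE on the log2 scale (adjusted p = 0.0108 by edgeR), a call that held in all 13 alternatives. Tnc, tenascin C, a glycoprotein of injured tissue and a ligand of Itga9, rose from 10.3 ± 2.10 to 26.3 ± 11.1 CPM (1.36 ± 0.31 SE, adjusted p = 0.0432).

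The lower ligands were Thbs3, a thrombospondin, and Edil3, a secreted ligand of αv integrins. Thbs3 fell from 13.3 ± 2.37 to 6.58 ± 1.09 CPM (log2 fold change -1.02 ± 0.19 SE, adjusted p = 0.0228 by edgeR) and Edil3 from 223 ± 46.8 to 74.8 ± 37.0 CPM (-1.57 ± 0.35 SE, adjusted p = 0.0410). The call of Tnc was lost with limma-voom (adjusted p = 0.0581), without control replicates 24, 26 and 27 (0.135, 0.0872 and 0.164) and without cuprizone replicates 30 and 31 (0.0680 and 0.0583). That of Edil3 was lost without the same 3 controls (0.0760, 0.125 and 0.113) and without cuprizone replicate 30 (0.143). That of Thbs3 was lost without control replicates 24 and 26 (0.0885 and 0.0945) and without cuprizone replicate 31 (0.0638). The list's count of 4 went to 2, 1 and 2 without control replicates 24, 26 and 27 (4.01%, 3.24% and 3.32% of all genes called). It went to 2 without cuprizone replicate 30 (3.41%) and to 7 with DESeq2 (12.5%). Of the ligands not tested, 5 had 0 counts in at least 1 library (Tnn, Madcam1, Fga, Fgb and Fgg).

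Of the latent TGF-β genes, 10 of 11 were tested, with a median of 0.45, and 1 passed (10.0%, beside 7.57% of all genes). Ltbp4, which binds latent TGF-β to the matrix, was at 15.2, 16.9 and 17.1 CPM in controls and 31.5, 29.1 and 26.8 CPM in cuprizone. It rose by 0.83 ± 0.12 SE on the log2 scale (adjusted p = 0.00767 by edgeR), with no overlap and in all 13 alternatives. The next by adjusted p were the receptor Tgfbr2 (0.99, adjusted p = 0.108) and the ligands Tgfb1 (0.90, 0.212) and Tgfb3 (-0.40, 0.227), which did not pass.

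Of the basement membrane partners of laminin, 13 of 14 were tested, with a median of 0.21, and 1 was lower (7.69%, beside 5.70% of all genes lower). Nid1, nidogen, which links laminin to collagen IV, was at 7.19, 11.4 and 11.3 CPM in controls and 1.04, 0.898 and 3.82 CPM in cuprizone (log2 fold change -2.38 ± 0.55 SE, adjusted p = 0.0453 by edgeR). The groups did not overlap, but the call was lost with upper-quartile scaling (0.0509), with no filter (0.0508) and without any one library but cuprizone replicate 32 (0.0828 to 0.138). Without replicate 32 the log2 fold change was -3.36 (adjusted p = 0.00283). The collagen chains Col4a6 (1.76, adjusted p = 0.0628) and Col4a5 (0.79, 0.224) and the proteoglycan Hspg2 (-0.77, 0.102) did not pass.

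Of the laminin receptors that are no integrins, 12 of 14 were tested, with a median log2 fold change of 0.02. Sgce (-0.56 ± 0.14 SE, adjusted p = 0.0580 by edgeR) and Sgcb (-0.42 ± 0.19 SE, 0.244), both sarcoglycans of the dystrophin complex, and Utrn (0.51 ± 0.17 SE, 0.128), utrophin, did not pass.

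Of the integrin adaptors and adhesion kinases, 24 of 25 were tested, with a median of -0.12, and 1 was lower (4.17%, beside 5.70% of all genes lower). Zyx, zyxin, a protein of focal adhesions, was at 116, 103 and 110 CPM in controls and 73.8, 78.3 and 75.8 CPM in cuprizone (-0.53 ± 0.10 SE, adjusted p = 0.0252 by edgeR). The groups did not overlap, and the call was lost without control replicate 24, 26 or 27 (0.101, 0.0755 and 0.122) and without cuprizone replicate 30 or 31 (0.106 and 0.0502). Dst, which ties Itgb4 to intermediate filaments in hemidesmosomes, was at 180, 170 and 175 CPM in controls and 112, 135 and 95.3 CPM in cuprizone (-0.62 ± 0.15 SE, adjusted p = 0.0538). The scaffold Bcar1 (-0.47, 0.0767) and the tetraspanin Cd81 (-0.62, 0.110) did not pass either.

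**Figure D5:**
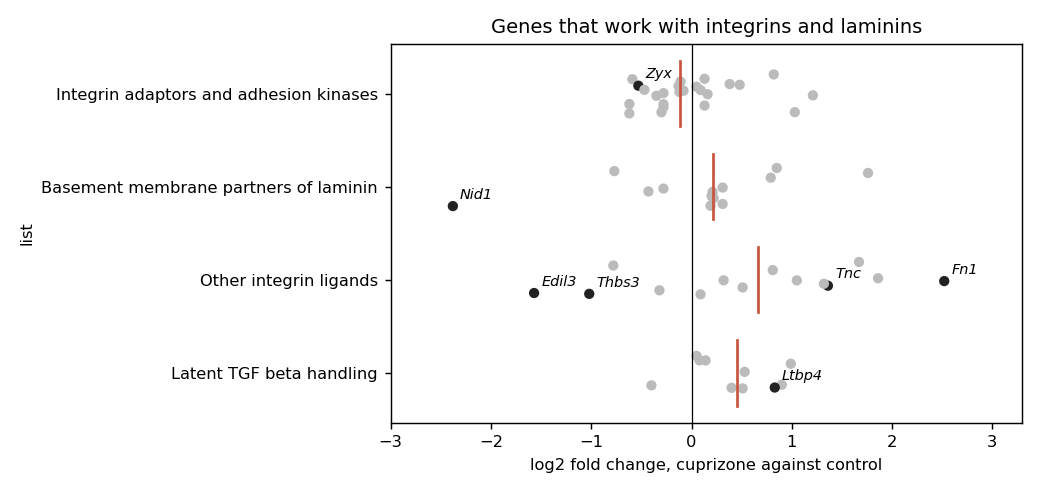
Log2 fold change of cuprizone against control (horizontal axis) for the tested genes of 4 of the lists (rows). Black named points passed an adjusted p under 0.05, grey points did not, and red lines are medians, from -0.12 for the adaptors to 0.66 for the other ligands.

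Markers of further cell types that could carry these chains were measured in the same libraries, and none of their genes passed the threshold. The 10 endothelial markers summed to 23.7 to 26.1 CPM in controls and to 23.6 to 77.3 CPM in cuprizone, and the 9 pericyte and smooth muscle markers to 57.5 to 72.3 and 71.8 to 214 CPM. No marker of either list was at 0 in any library. Fibroblast markers summed to 178 to 448 and 139 to 198 CPM, with Lum, Col3a1 and Slc6a13 at 0 in some library. Most of this sum was Pdgfra, also a progenitor marker, except in control replicate 27, where it was Igf2 (294 CPM). Dcn, Lum, Col1a1, Col3a1 and Slc6a13 were highest in cuprizone replicate 32 (Dcn at 71 counts), and Col1a2, Cemip, Igf2 and Pdgfra were not. Ependymal markers summed to 101 to 141 and 75.2 to 155 CPM, and neuronal markers to 1557 to 2563 and 1863 to 3481 CPM. Within the cuprizone group the endothelial and pericyte sums were lowest in replicate 31 and highest in replicate 32. Fn1, Itga1 and Itga2b were also lowest in replicate 31 but highest in replicate 30. Itga5 was lowest in replicate 30 and highest in replicate 32, as was the microglia and macrophage sum. Single vascular markers did not all follow their sums. Tagln (14.3, 2.69 and 6.84 CPM in replicates 30, 31 and 32), Myh11 and Kdr had the order of Fn1, while most others had that of the sums. The part of vascular RNA in the levels of Itga1, Itga5, Itga2b and Fn1 was not tested.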

How the data were processed

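RNA bound to HA-tagged ribosomes was sequenced from 3 control and 3 cuprizone libraries, grouped by treatment and title. The authors deposited raw read counts per Ensembl gene. Per the submitters' processing notes, bcl2fastq 2.17 and mm10 were used. Aligner, counter, annotation and strandedness are not stated in these sources, so reads of overlapping genes may have gone to either.

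Symbols, positions and union exon lengths came from GENCODE M21 (GRCm38, also called mm10), which matched 37607 of 39017 identifiers. The 1410 others held 0.393% to 0.467% of a library's counts. Promoter windows came from RefSeq (GRCm38.p6). With R 4.3.3 and edgeR 4.0.16, genes were kept by filterByExpr (minimum count 10, minimum total 15), which left 16569. Libraries were scaled by TMM (factors 0.915 to 1.11) and tested by glmQLFit (robust) and glmQLFTest, 2-sided, with Benjamini-Hochberg adjustment and a threshold of 0.05. The SE is the log2 fold change divided by the root of its F statistic. CPM values are TMM-scaled, and levels per length are CPM per kb of exon. No replicate pair agreed within sampling noise.

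Simulated counts for 16399 genes of this comparison were used to test the procedure, and only genes with a mean above 2 CPM were changed. Fewer genes were changed than were called in the data. The procedure recovered 94% and 54% of genes lowered by 2 and 1 (log2). It recovered 76% and 100% of genes raised by 1 and 2, and 10% of its calls were false.

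The members and lists were chosen with earlier results of these data known. Full values are given for every chain past the threshold and for a set list of 12. Other chains are given by their fold change, with values where groups did not overlap or means differed over 2-fold. Of each pathway list the 4 smallest adjusted p are named, except for 1 gene that is not reported here. Alternatives were scaling by RLE or by the upper quartile, TMM without myelin and abundant genes, no filter, a CPM filter, DESeq2 1.42.0, limma-voom 3.58.1, and leaving out each library.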

Additional observations from a re-analysis of the deposited data

How the results depend on the processing

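Of 29 tested chains, 18 kept their direction in all 13 alternatives, and Itga11 did in the 12 that tested it (the CPM filter dropped it). Itgb4 kept its call in all 13. With DESeq2, 7 chains passed, 6 of them higher. Leaving out 1 library gave 1 to 4 chains (0 to 3 higher and 1 to 2 lower), while 3.24% to 8.53% of all genes were called; without cuprizone replicates 31 and 32 it was 4 chains each, beside 7.07% and 8.53%. With DESeq2, which called 12.5% of all genes, the adaptors counted 5 of 24 tested and the basement membrane partners 3 of 14. The laminin receptors counted 2 of 14, the other ligands 7 of 15 and the TGF-β genes 2 of 10. The adaptors counted 2 with limma-voom (7.63% of all genes called). The basement membrane partners counted 0 with upper-quartile scaling (7.32%) and 0 with no filter (5.08%). Leaving out 1 library gave 0 to 2 adaptors, 0 to 2 basement membrane partners, 0 to 2 laminin receptors, 1 to 4 ligands and 1 TGF-β gene.

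A total of 10 chains, none past the threshold, changed the sign of their log2 fold change. The cause was not tested. With upper-quartile scaling Itga3 was at 0.04 and Itga8 at 0.01, and with limma-voom Itgb8 was at -0.05. With 1 library left out, values ran from -0.25 to 0.17 for Itga3, -0.05 to 0.43 for Itga7, -0.65 to 0.22 for Itga8, -0.30 to 0.02 for Itga9, -0.45 to 0.39 for Itgb7, -0.22 to 0.32 for Itgb8, -0.60 to 0.07 for Lama2, -0.01 to 0.66 for Lama5, -0.10 to 0.49 for Lamb2 and -0.28 to 0.23 for Lamb3.

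The ratio of Itgb4 to Itga6, an alternative chosen after seeing the data, was 5.48 to 5.93 in controls and 0.185 to 0.285 in cuprizone with each library left out. No paired analysis was possible because the groups share no replicate number. Chains with few counts (Itga1, Itga2b and Itga11) are limited by counting error as well as by the spread of the libraries.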
